A study of Homo sapiens with 12 samples.

Results

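Mitochondrial ribosomal proteins were followed in PANC-1, a human pancreatic ductal adenocarcinoma cell line carrying E47 in a form that tamoxifen switches on. Members were chosen by name, as all genes whose annotated symbol begins with MRPL or MRPS and a number, with pseudogenes and antisense RNAs left out. This gave 76 genes read by 110 probes, out of 12965 named genes among 19733 features tested. By name, 48 belong to the large subunit and 28 to the small subunit. All 76 lay above the array background on all 12 arrays, so the filter on dim probes removed no member. The rule selected on gene symbols alone and on no measured value, but the family was taken up with earlier results of these comparisons known. Its counts, levels and adjusted p-values are therefore a description of these arrays. MRPS36 and 4 annotated symbols of pseudogenes or antisense RNAs were not analysed here.

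Total RNA was hybridised to Illumina bead arrays, 4 from untreated cells, 4 from cells held 48 h in 1 µM tamoxifen and 4 from cells held 48 h in 4 µM tamoxifen. E47, a basic helix-loop-helix protein encoded by TCF3, is present in inducible form in all 3 groups. No vehicle or time is given for the untreated group, and no group lacks inducible E47, so an effect of tamoxifen itself cannot be told apart from one of E47. Whether the 4 arrays of a group come from separate cultures is not stated in the labels. Their p-values therefore reflect the spread among these arrays alone, and that spread may be technical.

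Mitochondria make a small set of respiratory chain proteins on ribosomes of their own. The ribosomal RNAs of these particles come from mitochondrial DNA, whereas every protein of them is encoded in the nucleus, made in the cytosol and imported. The large subunit joins amino acids and passes the new chain out through its exit tunnel towards the inner membrane, and the small subunit holds the messenger RNA and reads its codons. Some of the proteins have counterparts in bacterial ribosomes, and others occur only in mitochondria.

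Within each group the arrays correlated at 0.9907 or more, whereas no untreated array correlated above 0.9598 with a treated one. Between 22358 and 22390 of 47323 probes exceeded the background threshold per array. TCF3 itself gave log2 values of 8.31, 8.09, 7.92 and 8.25 at 4 µM, against 9.64, 9.43, 9.48 and 9.77 in untreated cells, a log2 fold change of -1.44 ± 0.12 (limma, adjusted p = 3.82e-12). At 1 µM its fold change was -0.79 ± 0.12 (limma, adjusted p = 1.77e-06). Whether this probe reads the inducible construct is not given in the sources used here. Of 7 ductal line markers, all 7 were above background on all 12 arrays, among them KRT8, KRT18 and KRT19. Of 14 markers of other cell types, PTPRC, CD3E, VWF and CDH5, which mark blood and vessel cells, stayed below background on all 12. Of the same list, CD14 and CD68, which mark macrophages, were above background on all 12 arrays. COL1A1 was above background on 11 arrays, the fibroblast genes COL3A1 and LUM and the globin HBA1 on 8 each, DCN on 6, HBB on 3 and PECAM1 on 2.

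Lower levels under tamoxifen were the common pattern in the family. At 4 µM, 34 of the 76 genes were called lower than in untreated cells and 0 were called higher, a gene being called when its limma p-value, adjusted over all 19733 features, was below 0.05. At an unadjusted p under 0.05, 37 were lower and 0 higher, where 9046 of the 19733 features passed in either direction. Over all features 19.5% were called lower and 19.9% higher in the same comparison. The share called lower was 22.2% among features with a gene, and 25.6% among those with a gene and a mean log2 value of at least 10. At that brightness 24 of 58 members were called lower. The mean log2 signal of the members' probes had a median of 10.79, where that of all features was 8.01, and signals of different probes are not set against each other as transcript levels. Their median log2 fold change at 4 µM was -0.24, where that of all features was -0.03. Of the 76 fold changes 71 were negative, where 53.8% of those of all features were. In 31 genes all 4 arrays of the 4 µM group lay below all 4 untreated arrays, and in 0 all lay above. Over all features 18.3% lay wholly below and 18.8% wholly above. A level is relative to all transcripts of the same sample, and less transcript per cell cannot be told apart from fewer cells carrying it.

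At 1 µM, 45 of the 76 genes were called lower than in untreated cells and 0 higher, where 19.5% of all features were called lower and 18.1% higher. The share called lower was 21.8% among features with a gene. It was 25.1% among the bright ones, where 35 of 58 members were called. The 45 genes make up 59.2% of the family, and the 34 called at 4 µM make up 44.7%. The median log2 fold change of the members was -0.33 at 1 µM, and 70 of the 76 values were negative, where 54.4% of all features were. At an unadjusted p under 0.05, 49 were lower and 1, MRPL15, was higher, where 8761 of 19733 features passed in either direction. Both comparisons rest on the same 4 untreated arrays and are not independent of each other.

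**Figure D1:**
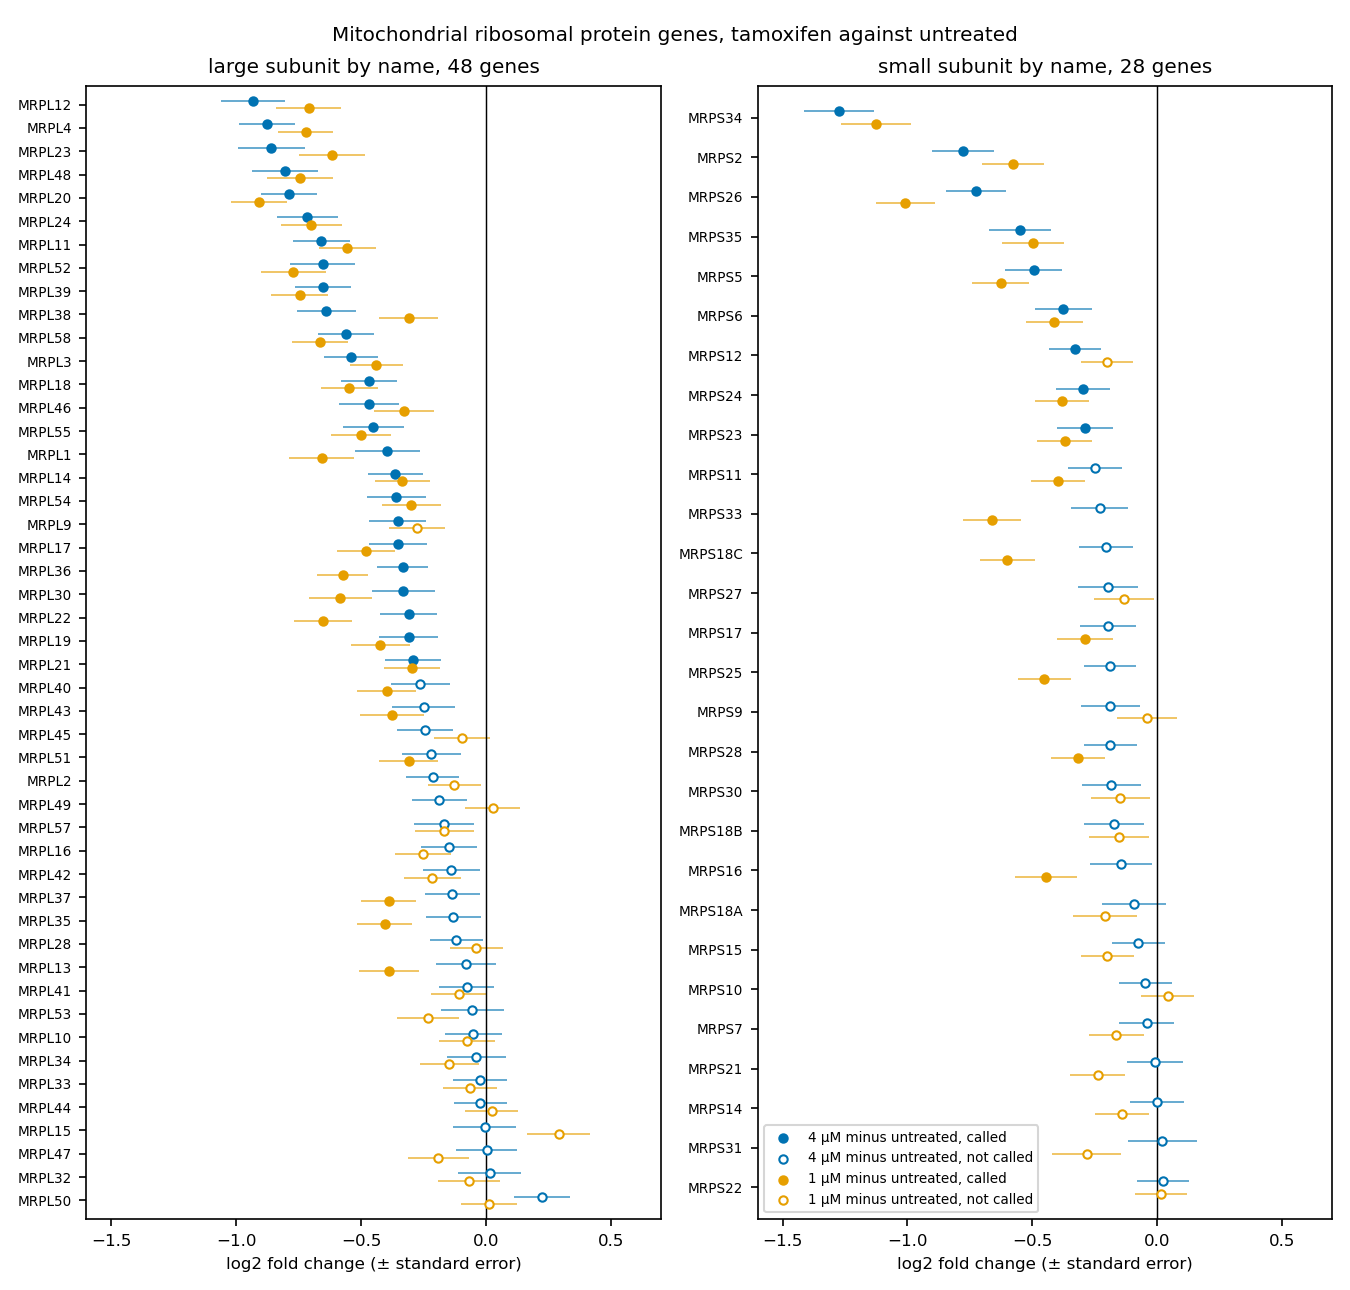
Log2 fold change of each of the 76 genes against untreated cells at 4 µM (blue) and 1 µM (orange), with the large subunit on the left and the small subunit on the right. Points are estimates from limma with standard errors as bars, filled where called, and nearly all lie left of 0, with 71 negative at 4 µM and 70 at 1 µM.

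By subunit, 25 of 48 large subunit genes (52.1%) and 9 of 28 small subunit genes (32.1%) were called lower at 4 µM. At 1 µM the counts were 30 of 48 (62.5%) and 15 of 28 (53.6%). Over all features 19.5% were called lower at each dose. Among features with a gene and a mean log2 value of at least 10, 25.6% were at 4 µM and 25.1% at 1 µM. The small subunit share at 4 µM lay nearest to these. The median log2 fold change of the large subunit genes was -0.30 at 4 µM, which is a change of -18.9%, and that of the small subunit genes was -0.19, or -12.5%. At 1 µM the medians were -0.355 for the large subunit, or -21.8%, and -0.30 for the small subunit, or -18.9%. The difference between the subunits was not tested. Structures of the human particle place MRPS18A and MRPS30 in the large subunit in spite of their names. With these moved, 25 of 50 large and 9 of 26 small subunit genes were called lower at 4 µM. At 1 µM they were then 30 of 50 and 15 of 26, with medians of -0.33 and -0.34, so the order of the subunit medians at 1 µM turned with the assignment of these genes.

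The shift of the subunit medians was present on single arrays. Deviations were taken from each gene's untreated mean, so the untreated medians lie near 0 by construction. Not every member followed. On the treated arrays 38 to 47 of the 48 large and 21 to 27 of the 28 small subunit genes lay below that mean. On the untreated arrays 19 to 34 and 9 to 18 did. The median deviation of the large subunit genes from the untreated mean was -0.34, -0.32, -0.28 and -0.24 on the 4 µM arrays, against 0.00, -0.07, 0.04 and 0.02 on the untreated ones. On the 1 µM arrays it was -0.35, -0.32, -0.31 and -0.41. No treated array overlapped the untreated ones. For the small subunit the medians were -0.30, -0.24, -0.21 and -0.16 at 4 µM, against -0.02, 0.02, -0.02 and 0.00 in untreated cells. At 1 µM they were -0.345, -0.40, -0.17 and -0.34, which again lay apart from the untreated arrays, with the third array nearest to them. The same median over all features ranged between -0.03 and 0.00 on the 12 arrays.

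**Figure D2:**
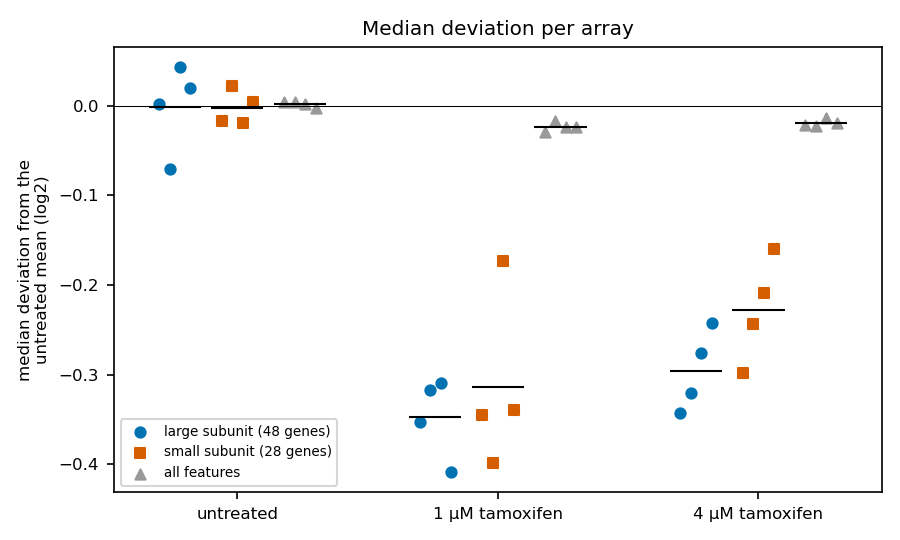
Median deviation from the untreated mean on each array, on the log2 scale, for the 48 large subunit genes (circles), the 28 small subunit genes (squares) and all 19733 features (triangles), by group, with group means as lines. All treated arrays lie below all untreated arrays for both subunits, while the medians of all features stay between -0.03 and 0.00.

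Promoter sequence was set beside these levels, because E47 binds the E-box, CANNTG, and because NRF1, ETS factors and YY1 are known regulators of nuclear genes for mitochondria. RefSeq windows (GRCh38.p14) of 250 bases before to 50 after the start were held for 68 of the 76 genes and searched on both strands. An E-box occurred in 41 of 68 (60.3%), compared with 64.5% of 15843 protein-coding promoters. Its forms CAGCTG and CAGGTG occurred in 7 (10.3%) and 12 (17.6%), where all promoters had 17.7% and 19.9%. The NRF1 form GCGCATGC was found in 6 members (8.82%), where all promoters had 4.26%, and the ETS form CCGGAAGT in 10 (14.7%), where all had 6.19%. The YY1 form AAGATGGCG was found in 13 members (19.1%), where all promoters had 2.74%. Among the 42 genes called lower at either dose with a window, 6 held the YY1 form (14.3%), as did 7 of the 26 not called (26.9%). The E-box stood in 26 of those 42 (61.9%) and 15 of those 26 (57.7%). These are matches of letters and were not tested as binding sites. The 250 bases before the start of 3 members with large falls are shown, 5′ to 3′ on the strand of the gene, with whole motif matches in capitals.
MRPS34 (chr16:1773135-1773384, minus strand, capitals mark the ETS form on the other strand): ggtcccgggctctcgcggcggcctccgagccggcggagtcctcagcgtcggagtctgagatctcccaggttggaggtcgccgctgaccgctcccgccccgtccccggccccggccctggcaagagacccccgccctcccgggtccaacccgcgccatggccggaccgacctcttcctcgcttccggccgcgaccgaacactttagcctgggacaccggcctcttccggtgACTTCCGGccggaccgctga
MRPL12 (chr17:81703117-81703366, plus strand, capitals mark an E-box of the form CAGGTG on the other strand): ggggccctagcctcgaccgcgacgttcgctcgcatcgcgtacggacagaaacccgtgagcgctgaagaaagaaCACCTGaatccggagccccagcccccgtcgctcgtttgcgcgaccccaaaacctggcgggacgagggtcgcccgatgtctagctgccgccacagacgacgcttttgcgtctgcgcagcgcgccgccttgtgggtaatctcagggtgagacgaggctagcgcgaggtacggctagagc
MRPL52 (chr14:22829637-22829886, plus strand, capitals mark the NRF1 form on the other strand and then the YY1 form at 2 places): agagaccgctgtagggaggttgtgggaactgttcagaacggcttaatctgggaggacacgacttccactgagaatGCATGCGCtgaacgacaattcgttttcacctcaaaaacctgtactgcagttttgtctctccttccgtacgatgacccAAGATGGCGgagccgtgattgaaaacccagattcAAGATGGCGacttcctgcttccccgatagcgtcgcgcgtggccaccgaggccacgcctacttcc
Of these windows, that of MRPL12 holds an E-box and the others hold none. The window of MRPL52 also holds the ETS form on the other strand, beginning 6 bases before the start. That match runs past the bases shown and so is not in capitals.

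Of the large subunit, MRPL12, the stalk protein that brings translation factors to the ribosome, had the largest fall at 4 µM when each gene is read from its brightest tested probe. It read log2 values of 10.50, 10.19, 10.28 and 10.36 at 4 µM, against 11.01, 11.21, 11.47 and 11.37 in untreated cells, and 10.22, 10.95, 10.56 and 10.48 at 1 µM. The 4 µM arrays all lay below the untreated ones, and so did the 1 µM arrays, the highest of which came within 0.06 of the lowest untreated array. The log2 fold change was -0.93 ± 0.13 at 4 µM, or 1.91-fold lower (limma, adjusted p = 2.34e-07), and -0.71 ± 0.13 at 1 µM (adjusted p = 2.89e-05). MRPL11, which sits at the base of the stalk, was also lower, by -0.66 ± 0.11 at 4 µM and -0.56 ± 0.11 at 1 µM. All 3 of its probes were called lower at both doses. MRPL10, which carries the stalk, was called at neither dose, with fold changes of -0.05 ± 0.11 at 4 µM and -0.08 ± 0.11 at 1 µM.

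MRPL4, MRPL23 and MRPL24 line the exit tunnel and its mouth. MRPL4 read 8.26, 7.96, 8.09 and 8.20 at 4 µM, against 9.11, 8.93, 8.92 and 9.06 in untreated cells, and 8.20, 8.35, 8.10 and 8.48 at 1 µM. Every treated array lay below every untreated array. Its fold change was -0.88 ± 0.11 at 4 µM (limma, adjusted p = 4.32e-08) and -0.72 ± 0.11 at 1 µM (adjusted p = 2.02e-06). MRPL23 read 11.81, 11.27, 11.64 and 11.60 at 4 µM, against 12.42, 12.23, 12.34 and 12.77 in untreated cells, and 11.95, 12.12, 11.52 and 11.70 at 1 µM. The treated arrays again lay below the untreated ones, with fold changes of -0.86 ± 0.13 at 4 µM (adjusted p = 1.95e-06) and -0.62 ± 0.13 at 1 µM (adjusted p = 0.000303). MRPL24 read 11.72, 11.68, 12.04 and 11.83 at 4 µM, against 12.42, 12.46, 12.41 and 12.84 in untreated cells, and 11.58, 12.08, 11.80 and 11.85 at 1 µM. One untreated array stood above the other untreated ones, and all treated arrays lay below the lowest of them. The fold changes were -0.72 ± 0.12 at 4 µM (adjusted p = 9.51e-06) and -0.70 ± 0.12 at 1 µM (adjusted p = 1.59e-05). MRPL22, another protein of the tunnel, fell by less at 4 µM, with fold changes of -0.31 ± 0.12 at 4 µM and -0.65 ± 0.12 at 1 µM, both called.

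MRPL20, whose counterpart in Escherichia coli is needed early in assembly of the large subunit, had the largest fall of that subunit at 1 µM. It read 10.14, 10.36, 10.64 and 10.22 at 1 µM, against 11.32, 11.24, 11.20 and 11.23 in untreated cells, and 10.45, 10.58, 10.34 and 10.46 at 4 µM. The untreated arrays lay close together and all 8 treated arrays below them. The fold change was -0.91 ± 0.11 at 1 µM (limma, adjusted p = 3.32e-08) and -0.79 ± 0.11 at 4 µM (adjusted p = 4.16e-07). A second probe gave -1.10 at 1 µM and -1.06 at 4 µM.

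MRPL48, MRPL52 and MRPL39 are proteins of the large subunit without a bacterial counterpart. MRPL48 read 8.47, 8.76, 8.66 and 8.61 at 4 µM, against 9.36, 9.35, 9.10 and 9.89 in untreated cells, and 8.41, 8.61, 8.85 and 8.86 at 1 µM. The untreated arrays spread widely, yet the treated arrays all lay below them, and the fold changes were -0.80 ± 0.13 at 4 µM (limma, adjusted p = 5.64e-06) and -0.74 ± 0.13 at 1 µM (adjusted p = 2.27e-05). MRPL52 has the NRF1, YY1 and ETS forms in its promoter window. It read 8.20, 8.59, 8.58 and 8.64 at 4 µM, against 9.21, 9.06, 9.25 and 9.09 in untreated cells, and 8.16, 8.78, 8.50 and 8.10 at 1 µM. One 4 µM array was lower than the other 4 µM arrays, and no treated array reached the untreated ones. The fold changes were -0.65 ± 0.13 at 4 µM (adjusted p = 8.79e-05) and -0.77 ± 0.13 at 1 µM (adjusted p = 8.91e-06). MRPL39 read 10.79, 11.05, 10.996 and 11.08 at 4 µM, against 11.46, 11.50, 11.81 and 11.76 in untreated cells, and 10.83, 10.91, 11.06 and 10.75 at 1 µM. Its treated arrays lay close together and below the untreated ones, with fold changes of -0.65 ± 0.11 at 4 µM (adjusted p = 1.27e-05) and -0.75 ± 0.11 at 1 µM (adjusted p = 1.67e-06).

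Other called members of the large subunit included MRPL58, which frees stalled mitochondrial ribosomes and fell by 0.56 on the log2 scale at 4 µM and by 0.66 at 1 µM. MRPL3, a protein near the peptidyl transferase centre, fell by 0.54 at 4 µM and by 0.44 at 1 µM. MRPL38, of the central protuberance, fell by 0.64 at 4 µM and by 0.31 at 1 µM. MRPL1, of the side opposite the factor stalk, fell by 0.40 at 4 µM and by 0.66 at 1 µM, and MRPL36 fell by 0.33 at 4 µM and by 0.57 at 1 µM. Members of the same subunit that were not called at either dose included MRPL44, which resembles ribonuclease III, with fold changes of -0.02 ± 0.11 at 4 µM and 0.02 ± 0.11 at 1 µM. MRPL45, which ties the ribosome to the inner membrane, had -0.24 at 4 µM and -0.10 at 1 µM. MRPL33 read 13.02, 12.96, 12.95 and 13.04 at 4 µM, against 12.90, 12.95, 13.19 and 13.04 in untreated cells, and these ranges overlap.

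The highest fold changes of the family were those of MRPL50 at 4 µM and MRPL15 at 1 µM. MRPL50 read 10.56, 10.73, 10.93 and 10.92 at 4 µM, against 10.63, 10.43, 10.74 and 10.45 in untreated cells. These ranges overlap, and the fold change of 0.22 ± 0.11 was not called (limma, adjusted p = 0.117). Without the first 4 µM array MRPL50 was called higher. MRPL15 read 11.19, 11.37, 11.02 and 11.25 at 1 µM, against 11.15, 10.81, 10.88 and 10.83 in untreated cells. These overlap as well, and the fold change of 0.29 ± 0.13 was not called (limma, adjusted p = 0.067). It was called higher without the third 1 µM array and without the first untreated array.

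In the small subunit, MRPS34, a protein found only in mitochondrial ribosomes, had the largest fall of the whole family at both doses. It read 8.97, 8.76, 8.56 and 8.80 at 4 µM, against 9.85, 10.16, 9.97 and 10.22 in untreated cells, and 9.07, 9.33, 8.38 and 8.91 at 1 µM. All treated arrays lay well below all untreated arrays, and the 1 µM arrays spread most. The log2 fold change was -1.28 ± 0.14 at 4 µM, or 2.42-fold lower (limma, adjusted p = 2.16e-09), and -1.13 ± 0.14 at 1 µM, or 2.18-fold lower (adjusted p = 3.99e-08). MRPS26, also without a bacterial counterpart, read 9.79, 9.87, 9.67 and 9.67 at 1 µM, against 10.66, 10.78, 10.93 and 10.66 in untreated cells, and 9.71, 10.29, 10.18 and 9.97 at 4 µM. The 1 µM arrays lay within a narrow band below the untreated arrays, and the 4 µM arrays were more spread but did not reach them. Its fold change was -1.01 ± 0.12 at 1 µM, or 2.01-fold lower (limma, adjusted p = 1.16e-08), and -0.73 ± 0.12 at 4 µM (adjusted p = 4.78e-06). Read from each gene's brightest tested probe, MRPS34 at both doses and MRPS26 at 1 µM had the falls of at least 2-fold, and the second MRPL20 probe gave such a fall at both doses.

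MRPS2, MRPS5 and MRPS6 have bacterial counterparts, and MRPS5 lies at the entry of the messenger RNA channel. MRPS2 read 9.27, 8.91, 8.93 and 8.78 at 4 µM, against 9.72, 9.93, 9.71 and 9.64 in untreated cells, and 9.37, 9.41, 8.95 and 8.97 at 1 µM. The treated arrays lay below the untreated ones at both doses, with fold changes of -0.78 ± 0.12 at 4 µM (limma, adjusted p = 2.98e-06) and -0.58 ± 0.12 at 1 µM (adjusted p = 0.000284). MRPS5 read 10.51, 10.53, 10.54 and 10.67 at 4 µM, against 10.99, 10.83, 11.19 and 11.22 in untreated cells, and 10.41, 10.55, 10.22 and 10.53 at 1 µM. Its treated arrays were below the untreated ones, and the fold changes were -0.50 ± 0.11 at 4 µM (adjusted p = 0.000494) and -0.63 ± 0.11 at 1 µM (adjusted p = 2.47e-05). MRPS6 read 12.03, 12.24, 12.21 and 12.17 at 4 µM, against 12.54, 12.43, 12.63 and 12.55 in untreated cells, and 11.78, 12.18, 12.30 and 12.24 at 1 µM. The groups did not overlap here either, on smaller fold changes of -0.38 ± 0.11 at 4 µM (adjusted p = 0.00809) and -0.41 ± 0.11 at 1 µM (adjusted p = 0.00396). MRPS35, which is specific to mitochondria, read 10.87, 10.51, 10.71 and 10.78 at 4 µM, against 11.18, 11.06, 11.25 and 11.58 in untreated cells, and 10.58, 10.59, 10.94 and 10.96 at 1 µM. All treated arrays lay below the untreated ones, with fold changes of -0.55 ± 0.12 at 4 µM (adjusted p = 0.000402) and -0.50 ± 0.12 at 1 µM (adjusted p = 0.00134). MRPS12, of the decoding centre, fell by 0.33 at 4 µM (adjusted p = 0.0114) and had -0.20 ± 0.11 at 1 µM (adjusted p = 0.137).

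**Figure D3:**
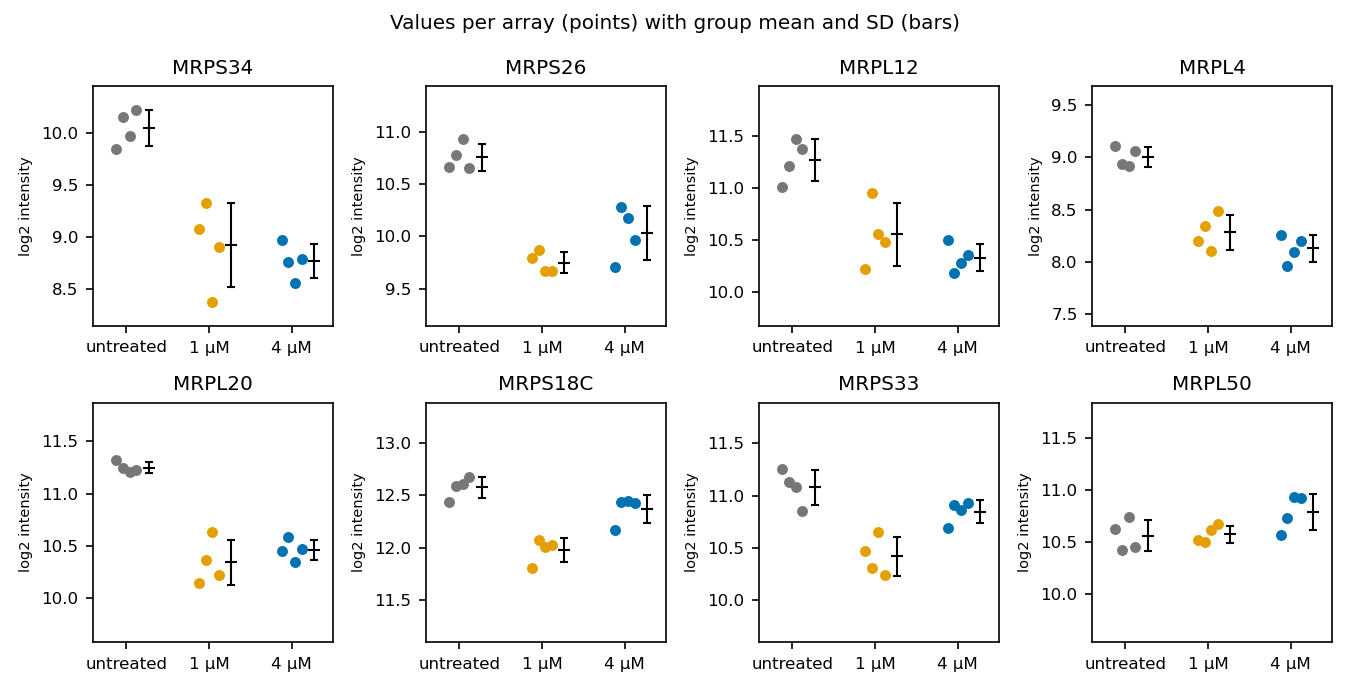
Log2 intensity on each array for 8 members, with untreated, 1 µM and 4 µM groups from left to right, points for arrays and bars for group mean and SD, every panel spanning the same number of log2 units. MRPS34, MRPS26, MRPL12, MRPL4 and MRPL20 have no treated array within their untreated range, MRPS18C and MRPS33 are lowest at 1 µM, and MRPL50 overlaps between groups.

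MRPS18A, MRPS18B and MRPS18C are the 3 human counterparts of the bacterial protein S18. MRPS18C read 11.80, 12.07, 12.003 and 12.02 at 1 µM, against 12.44, 12.59, 12.61 and 12.68 in untreated cells, and 12.17, 12.44, 12.45 and 12.43 at 4 µM. The 1 µM arrays lay below all others, whereas the 4 µM arrays overlapped the untreated range. Its fold change was -0.60 ± 0.11 at 1 µM (limma, adjusted p = 2.91e-05) and -0.21 ± 0.11 at 4 µM, which was not called (adjusted p = 0.14). MRPS18B read 11.68, 11.43, 11.62 and 11.58 at 4 µM, against 11.76, 11.90, 11.72 and 11.62 in untreated cells, and 11.88, 11.64, 11.65 and 11.23 at 1 µM. These ranges overlap, and the fold changes of -0.17 ± 0.12 at 4 µM (adjusted p = 0.277) and -0.15 ± 0.12 at 1 µM (adjusted p = 0.349) were not called. A second MRPS18B probe was called lower at both doses, with -0.48 at 4 µM and -0.40 at 1 µM. MRPS18A read 9.68, 9.73, 9.65 and 9.93 at 4 µM, against 10.05, 10.03, 9.81 and 9.46 in untreated cells, and 9.86, 9.66, 9.71 and 9.29 at 1 µM. The ranges overlap, with fold changes of -0.09 ± 0.13 at 4 µM (adjusted p = 0.618) and -0.21 ± 0.13 at 1 µM (adjusted p = 0.217). MRPS30, the other protein named for the small subunit but placed in the large one, read 11.40, 11.38, 11.67 and 11.67 at 4 µM, against 11.64, 11.75, 11.65 and 11.80 in untreated cells, and 11.58, 11.24, 11.62 and 11.81 at 1 µM. Its ranges overlap and neither fold change was called, at -0.18 ± 0.12 for 4 µM (adjusted p = 0.232) and -0.15 ± 0.12 for 1 µM (adjusted p = 0.361).

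Between the doses, 2 of the 76 genes were called higher at 4 µM than at 1 µM and 0 lower, where 4.36% of all features were called higher and 4.33% lower. At an unadjusted p under 0.05, 12 members were higher and 2 lower, where 4227 of 19733 features passed in either direction. Read from the brightest tested probe of each gene, the 2 called genes were MRPS33 and MRPS18C. MRPS33, a small protein specific to mitochondria, read 10.69, 10.91, 10.87 and 10.93 at 4 µM, against 10.47, 10.31, 10.65 and 10.24 at 1 µM. Its untreated arrays read 11.25, 11.13, 11.08 and 10.85. The 4 µM arrays lay above the 1 µM arrays and overlapped the untreated ones. The fold change of 4 µM over 1 µM was 0.43 ± 0.12 (limma, adjusted p = 0.0143), with -0.23 ± 0.12 for 4 µM against untreated (adjusted p = 0.114) and -0.66 ± 0.12 for 1 µM against untreated (adjusted p = 1.52e-05). For MRPS18C the fold change of 4 µM over 1 µM was 0.395 ± 0.11 (limma, adjusted p = 0.0182). Each call rested on single arrays. MRPS33 lost it without 4 µM replicate 2, 4 µM replicate 4 or 1 µM replicate 4, with adjusted p-values up to 0.0685. MRPS18C lost it without 4 µM replicate 2, 3 or 4 or 1 µM replicate 1, with adjusted p-values up to 0.0651. A second MRPS33 probe was called in none of the comparisons, with fold changes of 0.18 at 4 µM and -0.04 at 1 µM against untreated. A second MRPS21 probe was called higher at 4 µM than at 1 µM, by 0.43 ± 0.11 (limma over all tested probes, adjusted p = 0.0138). The brightest MRPS21 probe was not called, at 0.23 ± 0.11 (limma, adjusted p = 0.226).

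Across the doses, 32 genes were called lower at both, 24 of the large and 8 of the small subunit. A further 13 were called at 1 µM alone, and 2, MRPL9 and MRPS12, at 4 µM alone. The remaining 29 were called at neither dose, 17 of the large and 12 of the small subunit. Of the 15 genes called at a single dose, MRPS33 and MRPS18C were called between the doses, and the difference was not called in the other 13. By ancestry, 23 of 45 members with a bacterial counterpart (51.1%) and 11 of 31 specific to mitochondria (35.5%) were called lower at 4 µM. At 1 µM they were 28 of 45 (62.2%) and 17 of 31 (54.8%). Over all features 19.5% were called lower at each dose. Among features with a gene and a mean log2 value of at least 10, 25.6% were at 4 µM and 25.1% at 1 µM. The grouping by ancestry was drawn up after the results were seen, and the difference was not tested.

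Probes of the same gene often differed in their calls. Of 105 member probes tested, 47 were called lower at 4 µM and 0 higher, where 20.3% of all tested probes were called lower. At 1 µM, 59 were called lower and 0 higher, where 19.8% of all were. Of 23 genes with several tested probes, 5 had every probe called lower at 4 µM, namely MRPL4, MRPL11, MRPL20, MRPL21 and MRPL24. In 8 no probe was called, in 10 probes called lower stood beside probes not called, and 0 had opposite calls. At 1 µM every probe was called lower in 8 genes, none in 6, the calls were mixed in 9, and 0 had opposite calls. The fold changes differed in sign between probes in 7 genes at 4 µM and 5 at 1 µM. Some of these probes were dim. Those of MRPL55 and MRPL10 had mean log2 values of 6.835 and 6.96, near the background threshold of 6.79 on this scale. Others were well above it, such as the second MRPS21 probe at 9.58. In MRPS12, 1 probe gave 0.08 at 4 µM while 3 probes were called lower.

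Proteins that belong to or bind the particle without an MRP symbol were tested beside the family. Of 5 tested, 4 were called lower at 4 µM and 3 at 1 µM, and 0 were higher at either dose. Over all features 19.5% were called lower at each dose. CHCHD1 fell by 0.44 at 4 µM, GADD45GIP1 by 0.42, DAP3, a GTP-binding protein of the small subunit, by 0.39, and NDUFAB1, which is also the acyl carrier protein of complex I, by 0.28. OXA1L, the inner membrane insertase that binds the ribosome, had a log2 fold change of 0.16 at 4 µM and -0.06 at 1 µM and was not called at either dose. Of 25 assembly factors and ribosomal RNA modifying enzymes, 14 (56.0%) were lower and 2 higher at 4 µM, with a median log2 fold change of -0.29. At 1 µM, 11 (44.0%) were lower and 3 higher. Over all features 19.9% were called higher at 4 µM and 18.1% at 1 µM. TFB1M, which dimethylates the ribosomal RNA of the small subunit, fell by 1.03 on the log2 scale at 4 µM. RBFA, an assembly factor of the small subunit, fell by 0.87 there, and the methyltransferases MRM2 and METTL17 fell by 0.66 and 0.58. The pseudouridine synthase RPUSD4 and the endoribonuclease YBEY were higher at both doses.

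The translation factors that work on these ribosomes were mixed. Of 15 tested, 2 (13.3%) were lower and 2 higher at 4 µM, and 6 (40.0%) were lower and 1 higher at 1 µM. Over all features 19.5% were called lower and 19.9% higher at 4 µM, and 19.5% lower and 18.1% higher at 1 µM. The lists of this paragraph are read against those shares, and were not tested as lists. The elongation factor TSFM fell by 0.58 and the deformylase PDF by 0.48 at 4 µM, whereas the release factor MTRF1L was higher by 0.69 and the elongation factor GUF1 by 0.55. Of 20 mitochondrial aminoacyl-tRNA synthetases and related amidotransferase genes, 8 (40.0%) were lower and 1 higher at each dose. CARS2 fell by 0.75 and EARS2 by 0.73 at 4 µM, and GARS1, which also serves the cytosol, was higher by 0.60. Of 9 genes of mitochondrial transcription and DNA upkeep, 5 (55.6%) were lower and 1 higher at 4 µM. At 1 µM, 3 of them (33.3%) were lower and 0 higher. The helicase TWNK fell by 0.71, the RNA polymerase POLRMT by 0.54 and the packaging factor TFAM by 0.51 at 4 µM, and the DNA polymerase subunit POLG was higher by 0.49. Of 8 regulators of nuclear genes for mitochondria, 2 (25.0%) were lower at 4 µM, MYC by 1.05 and YY1 by 0.29. MYC alone (12.5%) was lower at 1 µM, by 0.59. Among features with a gene 22.2% were called lower at 4 µM and 21.8% at 1 µM. NRF1 and GABPA were not called at either dose. The NRF1 probe was dim, with group means of 6.88 at 4 µM, 7.06 at 1 µM and 6.93 in untreated cells. These lie near the background threshold of 6.79, so a change of NRF1 could be missed.

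Cytosolic ribosomes and the respiratory chain were set beside the family. Of 73 cytosolic ribosomal protein genes, 14 (19.2%) were lower and 1 higher at 4 µM, with a median log2 fold change of -0.09. At 1 µM, 17 (23.3%) were lower and 0 higher, with a median of -0.12. Over all features 19.5% were called lower at each dose, with 19.9% higher at 4 µM and 18.1% at 1 µM. The shares of cytosolic genes called lower are near that of all features. RPL39L and RPL36A had the largest falls at 4 µM, by 1.46 and 0.78. Of 73 nuclear genes for subunits of oxidative phosphorylation, 7 (9.59%) were lower and 6 higher at 4 µM, with a median of -0.04. At 1 µM, 20 (27.4%) were lower and 1 higher, with a median of -0.13. ATP5ME, of the ATP synthase, was higher by 0.80 at 4 µM and CYC1, of complex III, lower by 0.44. The corresponding medians of the mitochondrial ribosomal protein genes were -0.24 at 4 µM and -0.33 at 1 µM. Differences between families were not tested.

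**Figure D4:**
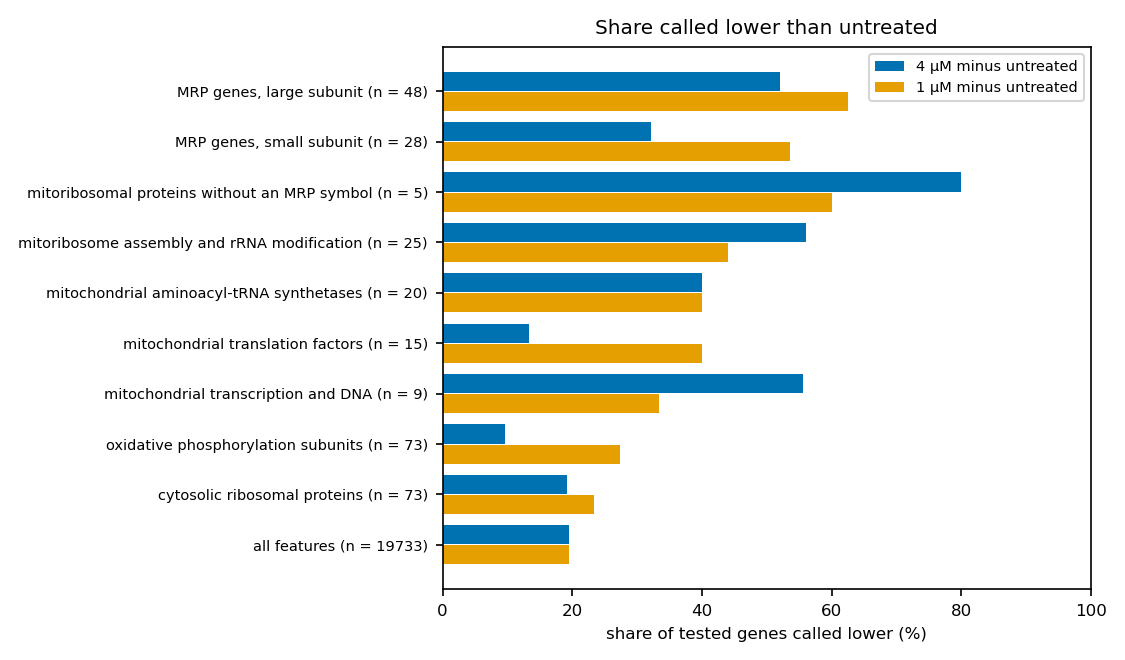
Share of tested genes called lower than in untreated cells, in percent, at 4 µM (blue) and 1 µM (orange) for each gene list, with the number of tested genes in brackets. The large subunit genes reach 52.1% at 4 µM and 62.5% at 1 µM, the cytosolic ribosomal protein genes 19.2% and 23.3%, and all features 19.5% at both doses.

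Markers of cell division were also lower than in untreated cells, but differed from the family between the doses. All 12 of 12 proliferation genes were called lower at each dose, where 19.5% of all features were. Their median log2 fold changes were -1.89 at 4 µM and -1.24 at 1 µM. Their summed intensity was 12038 to 12470 on the 4 µM arrays, against 44478 to 48393 on the untreated arrays, and 17397 to 21450 on the 1 µM arrays. Between the doses 11 of the 12 were lower at 4 µM than at 1 µM, where 4.33% of all features were. The median log2 fold change of the mitochondrial ribosomal protein genes between these doses was 0.08. Of the ductal markers, 6 of 7 were higher at 4 µM and 5 of 7 at 1 µM, where 19.9% and 18.1% of all features were. The summed ductal level was 65331 to 78617 at 4 µM, against 40523 to 49796 in untreated cells, and 69754 to 81774 at 1 µM. KRT19 and KRT8 made up most of the ductal sum, with intensities of 22687 to 44300 and 12421 to 32823 over the 12 arrays. After them the highest intensity was 4218, of SOX9. Of 7 tested markers of other cell types, COL1A1, COL3A1, LUM and HBA1 were higher and CD14 and CD68 lower at both doses. The summed level of these markers was 2928 to 3350 at 4 µM, against 4827 to 5054 in untreated cells, and 2629 to 3225 at 1 µM. CD68 made up most of this sum, with intensities of 1524 to 4174 over the 12 arrays. The next highest intensity was 596.5, of COL1A1. The median log2 fold change of the 7 markers was 0.83 at 4 µM and 0.60 at 1 µM. The part of cell division or of these markers in the lower mitochondrial ribosomal protein levels was not tested.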

How the data were processed

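Each array's file column, as deposited, holds linear probe intensities. The 12 columns have nearly the same distribution, with medians of 119.9 to 120, so they appear to have been normalized between arrays before deposit, by a method not given in the sources used here. The submitters' processing notes name GenomeStudio. A second table of 24 columns, whose names match no sample label, was not used. The treatment note prints the lower dose with a unit of volume, and the titles give 1 µM. RNA was labelled from 500 ng per sample, per the labels' protocols.

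Background was the mode of the intensities, 99.4, with a standard deviation of 14.7 from the lower side. Probes beyond an intensity of 124 were above background and were tested when that held on at least 4 arrays, which left 24342 probes. Intensities were corrected by normexp on the signals alone (offset 50, which shrinks fold changes of dim probes) and taken to log2. Of 47323 probes, 30113 have 1 annotated gene, 8 several and 17202 none. Each gene was read from its brightest tested probe, and unnamed probes remained as features. Group means were fitted with limma 3.58.1 (R 4.3.3) over 12 arrays, two-sided, with Benjamini-Hochberg adjustment over 19733 features. Errors of fold changes are standard errors from that fit (n = 4 arrays per group). The limma fit of 4 µM against untreated was tested on simulated data, and the background, filter and probe choice were not.

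Members, companion lists and motifs were chosen with earlier results of these data known. Members given on every array are, per subunit and dose, the 6 largest called falls, the called genes between doses, the MRPS18 paralogs and MRPS30. Others with values were picked for their role or after their values were seen. From each companion list up to 4 genes with the largest called change at 4 µM are named, with further regulators, markers and exceptions chosen afterwards. Same-numbered arrays showed no strong shared deviation (residual correlations of -0.067 to 0.15 over 12 pairs) and were not paired in the main fit. These correlations cannot exclude that arrays of the same number share a culture or batch. Alternatives changed the background correction, filter, centring, probe choice, prior, array weights, arrays fitted, subunit assignment and replicate block, and left out each array. The number of arrays limits the precision.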

Additional observations from a re-analysis of the deposited data

Results flagged for a closer look

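In 4 of 57 groups of 4 arrays, taken over the 19 members given on every array, a single array stood apart from the others by Dixon's criterion. Chance flags about 1 group in 20. MRPL24 read 12.84 on the fourth untreated array, where the other untreated arrays read 12.41 to 12.46. MRPL52 read 8.195 on the first 4 µM array, where the other 4 µM arrays read 8.58 to 8.64. MRPS5 read 10.67 on the fourth 4 µM array, where the others of its group read 10.51 to 10.54. MRPS18C read 12.165 on the first 4 µM array, where the others of its group read 12.43 to 12.45.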

How the results depend on the processing

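Over the alternatives other than leaving out an array, 29 to 35 members were called at 4 µM and 39 to 49 at 1 µM, and leaving out an array gave 29 to 34 and 40 to 45. No member was called higher than in untreated cells in any of these, except MRPL50 at 4 µM without the first 4 µM array, and MRPL15 at 1 µM without the third 1 µM array or the first untreated array. Over all alternatives, no called fold change of the members given on every array turned direction. Calls were lost for MRPS33 (3 alternatives) and MRPS18C (4 alternatives), both between doses. Calls were gained for MRPS18B at both doses with the mean of its probes (adjusted p = 0.00394 at 4 µM and 0.0137 at 1 µM, limma), MRPS33 at 4 µM and MRPS18A at 1 µM without the fourth untreated array, and MRPS26 between doses without the first 4 µM array. The comparison between doses depended on single arrays. Leaving out an array gave 0 to 6 members called, 1108 to 1867 features called where 1716 were called on all arrays, and a median log2 fold change of the small subunit genes of 0.078 to 0.137. No member was called without the second 4 µM array and 6 were without the first, while MRPL38 was called lower without the third 4 µM array and MRPL15 without the fourth. MRPL22 was called higher at 4 µM than at 1 µM without background correction, with array weights and with the replicate block. The same held with the trend and robust prior and with the filter on all arrays. MRPS21 was called higher with the mean of its probes. With the replicate number as a block, 34 members were called at 4 µM, 45 at 1 µM and 3 between doses, so the counts against untreated cells under this replicate block are those without it.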
